A study of Mus musculus with 20 samples.

Results

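The genes examined here are 9 genes of the response to DNA double-strand breaks: Brca1, Brca2, Rad50, Atm, Atr, Chek1, Chek2, Trp53 and H2afx. They were taken by symbol from the 2 deposited count tables, 1 of 16740 genes for the spleen and peripheral lymph nodes (pLNs) and 1 of 16784 genes for the mesenteric lymph nodes (mLN). All 9 were listed in both tables and all 9 had at least 1 counted read, so none was lost to the filter on low counts.

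A double-strand break is first bound by the MRN complex, in which Rad50 holds the broken ends together and through which the kinase Atm is activated. Atm phosphorylates the histone variant H2AX, encoded by H2afx, in the chromatin around the break, and this phosphorylated form is the usual cytological mark of damage. Atr is the related kinase that responds to single-stranded DNA at resected ends and stalled replication forks. Chek2 is a checkpoint kinase downstream of Atm, and Chek1 is its counterpart downstream of Atr. Brca1 and Brca2 both act in repair by homologous recombination. Trp53 encodes p53, the transcription factor that links damage to cell cycle arrest and apoptosis. Repair by homologous recombination is used in S and G2 phase, and transcripts of several of its genes rise in dividing cells, activated lymphocytes included. Most of the response to a break runs through protein modification, which mRNA levels do not measure.

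RNA-seq had been carried out on sorted CD4+ T cells of C57BL/6 mice aged 14 weeks. WT mice carried Foxp3Cre alone, a knock-in that expresses a YFP-Cre fusion from the Foxp3 locus, and DKO mice were Tet2/3fl/flFoxp3Cre, so both genotypes carried the Cre. Treg cells were sorted as CD4+YFP+(Foxp3+) cells and the other cells as CD4+YFP-(Foxp3-) cells. There were 2 libraries per group for spleen and pLNs (8 in all) and 3 per group for mLN (12 in all). Cre was driven by Foxp3, so the Foxp3- cells of DKO mice were not targeted for deletion, except any that had expressed Foxp3 earlier. The study reports much lower Tet2 and Tet3 mRNA in CD4+YFP- cells of DKO than of WT mice. It proposes that many of the activated cells among them are former Treg cells. Elsewhere it describes the mRNA loss as specific to CD4+YFP+ cells. The DKO Foxp3- group is therefore not taken as intact for Tet2 and Tet3. The DKO mice used for spleen and pLNs differed in the severity of splenomegaly by the study's description, and the labels do not tie a library to either mouse. In bulk libraries such as these, fewer cells of a type and less RNA per cell cannot be told apart.

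Counted reads per library ranged from 13525932 to 15253141 for spleen and pLNs and from 9998478 to 15449158 for mLN. Levels are given as CPM (counts per 1000000 counted reads) after TMM scaling of the library sizes. The labels of the sort were borne out by Foxp3 itself, which lay between 152 and 419 CPM in the 10 Treg libraries and at or below 2.75 CPM in the 10 Foxp3- libraries. Reads on Tet2 and Tet3 were counted over all exons, including those left after deletion, and so do not check the genotype: Tet2 was 10.4 to 10.8 CPM in WT Treg cells and 7.69 to 12.8 CPM in DKO Treg cells of the mLN, and Tet3 was 69.0 to 86.5 against 48.4 to 73.3 CPM (adjusted p = 0.368). In spleen and pLNs Tet2 was 2.08 and 1.11 CPM in WT against 8.01 and 2.05 CPM in DKO Treg cells (adjusted p = 0.144), and Tet3 was 31.0 and 30.6 against 61.0 and 38.1 CPM (adjusted p = 0.101). In Foxp3- cells of that tissue Tet3 was 50.9 and 58.1 CPM in WT against 37.7 and 45.9 CPM in DKO (adjusted p = 0.487). The library of DKO Treg replicate 1 from spleen and pLNs stood apart, with the longest 25% of genes 0.48 (log2) above the shortest 25% relative to the mean of all libraries, against -0.21 to 0.02 in the other 7. Summed CPM of the 4 detected of 5 NK cell marker genes, 1 of them called higher in mLN and 2 in spleen and pLNs, went from 9.54 to 11.4 in WT Treg libraries of the mLN to 74.9 to 162 in DKO Treg libraries, and from 8.84 to 9.99 to 91.3 to 125 in spleen and pLNs. Summed CPM of the 5 detected of 6 plasma cell markers reached 580 in 1 DKO Treg library and 651 in 1 DKO Foxp3- library of the mLN, against at most 159 in any WT library of that tissue. B cell markers summed to 15.9 to 39.1 CPM in DKO Treg cells of the mLN and 30.8 to 39.2 CPM in WT Treg cells, but 6 of the 7 had a positive log2 fold change there, with Pax5 and Cd22 called higher and Cd79b lower. In spleen and pLNs 6 of the 7 were also positive, with Ms4a1 called higher and Cd79b lower. The 2 CD8 T cell markers summed to 2.95 to 3.94 CPM in DKO Treg cells of the mLN and 16.0 to 20.8 CPM in WT, and 1 of them, Cd8b1, was called lower. Myeloid markers (9 detected of 12, 2 called higher) summed to 60.8 to 75.5 CPM in WT and 84.2 to 120 CPM in DKO Treg cells of the mLN. In spleen and pLNs their sums were 110 to 114 CPM in WT and 103 to 109 CPM in DKO Treg cells, yet 9 of 11 detected were positive, with Csf1r and Itgam called higher, and the plasma cell gene Igj was called higher there too. Treg markers summed to 1946 to 2111 CPM in WT and 1508 to 1704 CPM in DKO Treg cells of the mLN, with Il2ra and Ikzf4 of the 6 called lower, and none of the 6 was called in Treg cells of spleen and pLNs by edgeR. The part of these marker shifts in the results below was not tested.

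The sequences just upstream of 3 members that were higher together in DKO Treg cells of the mLN (Brca1, Brca2 and Chek2, described below) are shown because recombination and checkpoint genes are often transcribed through E2F and CCAAT elements during the cell cycle. They come from the RefSeq promoter table and were located by exact match in NCBIM37 (mm9), where they end at the base before the start that the RefSeq table gives. That start coincides with the start in the GENCODE M1 annotation, used for gene positions here, for Brca1 and lies a short way before it for Brca2 and Chek2. Chek1 was also higher there but is not printed, because the window before its RefSeq start lies inside the gene as GENCODE M1 draws it, and that window held no match to the sequences searched. For Brca1 the 193 bases at chr11:101413270-101413462 on the minus strand are shown, and for Chek2 the 205 bases at chr5:111268797-111269001 on the plus strand, each stopping at the first exon of a neighbouring gene that runs the other way (Nbr1 and Hscb). For Brca2 the 250 bases at chr5:151324946-151325195 on the plus strand are shown. Capitals mark matches on either strand to an E2F-type sequence (TTTCCCGC, TTTCGCGC, TTTGCCGC or TTTGGCGC) or to CCAAT.
Brca1: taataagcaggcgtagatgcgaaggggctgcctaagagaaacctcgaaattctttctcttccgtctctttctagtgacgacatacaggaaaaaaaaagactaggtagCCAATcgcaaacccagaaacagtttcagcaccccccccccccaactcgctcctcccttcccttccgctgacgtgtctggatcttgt
Brca2: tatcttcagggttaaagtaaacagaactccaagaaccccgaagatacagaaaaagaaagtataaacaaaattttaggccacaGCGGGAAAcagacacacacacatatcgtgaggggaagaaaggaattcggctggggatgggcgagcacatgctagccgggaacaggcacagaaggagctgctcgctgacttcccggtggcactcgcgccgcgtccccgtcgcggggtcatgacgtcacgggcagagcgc
Chek2: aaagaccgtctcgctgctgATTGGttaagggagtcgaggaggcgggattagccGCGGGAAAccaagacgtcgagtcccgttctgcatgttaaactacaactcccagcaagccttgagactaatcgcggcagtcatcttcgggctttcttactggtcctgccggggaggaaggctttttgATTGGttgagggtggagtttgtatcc
Over the 250 bases upstream of the start, an E2F-type sequence was present for Brca2 and Chek2 and not for Brca1, Atm, Atr, Chek1 or Trp53. Of the 32851 promoters in the table, 1.86% held one in the same window. CCAAT was present upstream of Brca1, Atm, Chek2 and Trp53, and in 33.8% of all promoters. TTTGAA or TTCGAA, the core of the cell cycle homology region, was present for Atr alone among the 7 members in the table, and in 17.1% of all promoters. A match of letters is a description of the window and not a binding site.

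The 9 genes lie on 3 chromosomes in NCBIM37 (GENCODE M1 positions). Brca1 (chr11:101350078-101413269, minus strand), Rad50 (chr11:53463021-53520821, minus strand) and Trp53 (chr11:69393861-69405375, plus strand) are on chromosome 11. Atm (chr9:53247254-53344845, minus strand), Atr (chr9:95758016-95852063, plus strand), Chek1 (chr9:36516067-36534650, minus strand) and H2afx (chr9:44142798-44144154, plus strand) are on chromosome 9. Brca2 (chr5:151325205-151372321, plus strand) and Chek2 (chr5:111269036-111303152, plus strand) are on chromosome 5. Counts were summed over the exons of each gene. The mouse genome also holds a processed pseudogene of Trp53, so reads shared between both copies make the Trp53 counts less certain. Libraries were made from polyadenylated RNA, and H2afx is also transcribed into a form without a poly(A) tail that such libraries miss.

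Levels between genes were compared on the deposited TPM values (reads scaled by gene length and then to a constant total per library). In WT Treg cells of the mLN, Trp53 had the highest level (170 TPM, range 165 to 173, n = 3) and H2afx the next (57.6 TPM, range 51.5 to 63.4). Atm followed at 17.1 TPM, then Atr at 13.4 and Rad50 at 11.9 TPM, and the libraries of Atr and Rad50 overlapped. Chek1 (3.27 TPM) and Chek2 (3.09 TPM) overlapped with each other, Brca1 was at 2.34 TPM, and Brca2 was lowest (0.944 to 1.05 TPM). Trp53 and H2afx were also first and second, and Brca2 last, in the 7 other groups of the 2 tissues. In WT Treg cells of spleen and pLNs, Trp53 was 153 TPM and H2afx 49.7 TPM, while Brca1 (0.542 TPM) and Brca2 (0.162 TPM) were the lowest 2. Counted reads behind these levels were few for some members: 8 to 99 reads per library for Brca2 and 19 to 204 for Brca1 in spleen and pLNs, against 44 to 145 and 50 to 292 in mLN. Trp53 had 1676 to 3271 reads in every library of both tissues. The 2 tissues were deposited in separate tables and fitted separately, so levels are not tested between them. On the TPM scale, the median difference of DKO from WT Treg cells over the genes of at least 1 CPM was 0.31 (log2) in spleen and pLNs and 0.16 in mLN. Changes are therefore reported on TMM-scaled counts.

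In mLN, 4 of the 9 members were higher in DKO than in WT Treg cells: the recombination genes Brca1 and Brca2 and the checkpoint kinases Chek1 and Chek2. The increases were 2.55-fold for Brca1, 2.57-fold for Chek1, 2.07-fold for Chek2 and 1.66-fold for Brca2. No member was lower. The call asked for a change of 1.5-fold or more together with an adjusted p (Benjamini-Hochberg, over all genes) no higher than 0.05 in edgeR's quasi-likelihood test. By the same rule 8.5% of the 16784 genes were called higher and 3.43% lower. At an unadjusted p under 0.05 there were the same 4 members, against 32.4% of all genes. The median log2 fold change of the 9 members was 0.26, against 0.0045 over all genes, and 7 of 9 had a positive value, against 50.4% of all genes.

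**Figure D1:**
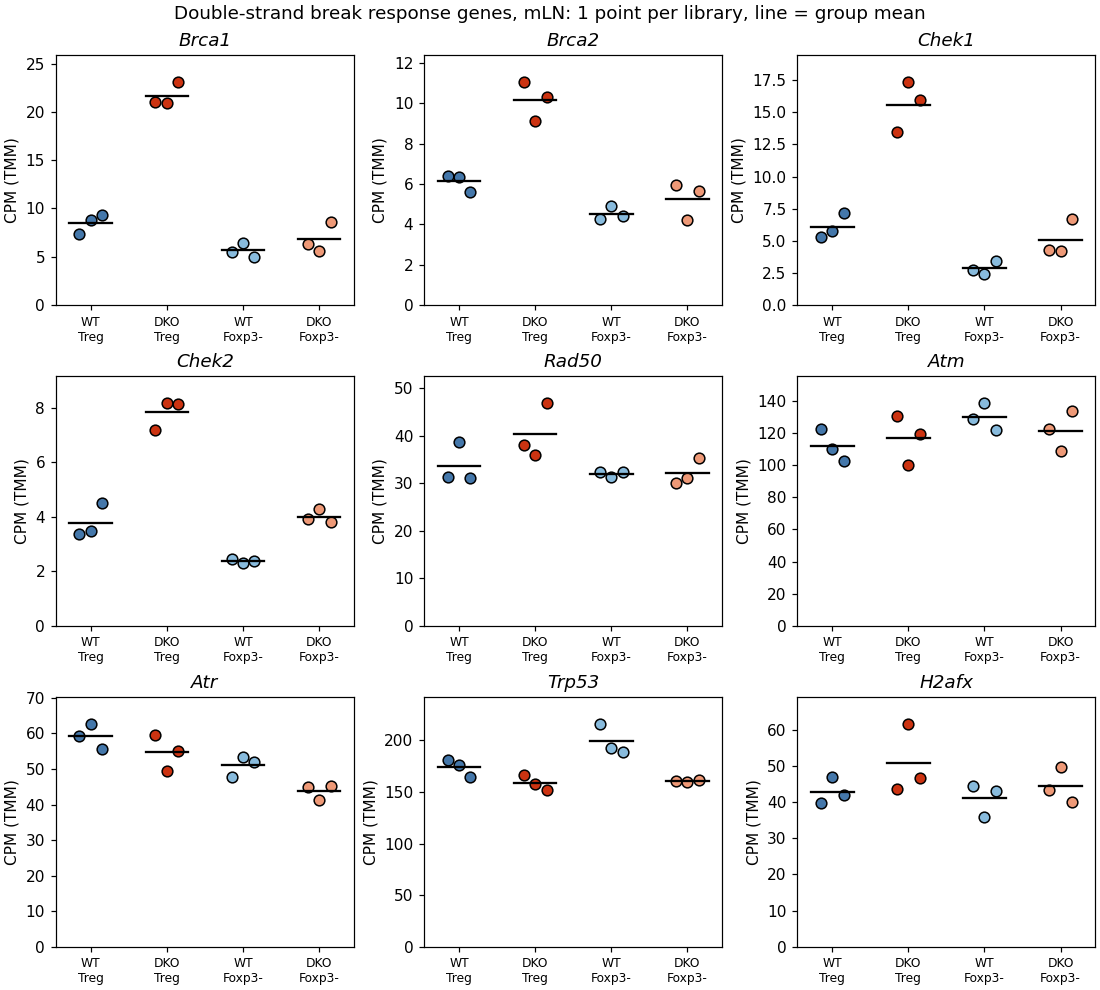
Levels of the 9 genes in mLN in CPM (vertical axes, each from 0), with 1 point per library and a line at the mean of each group of 3. The DKO Treg points of Brca1, Brca2, Chek1 and Chek2 lie above every other library of the tissue, whereas those of Atr lie among the others. Those of Atm do too, except replicate 2, which is the lowest library of the tissue (100 CPM).

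Brca1 was 7.40, 8.77 and 9.35 CPM in the WT Treg libraries of the mLN and 21.0, 21.0 and 23.2 CPM in the DKO Treg libraries. The lowest DKO library was thus above the highest WT library by more than the whole range of either group. The log2 fold change was 1.35 (SE 0.17, adjusted p = 0.000354), and Brca1 was number 143 of 16784 genes by p. Brca2 was 6.41, 6.37 and 5.61 CPM in WT against 11.1, 9.13 and 10.3 CPM in DKO Treg cells. Its groups did not overlap, and its change was the least of the 4, at 0.73 (log2, SE 0.18, adjusted p = 0.0126). Leaving out WT Treg replicate 3 moved Brca2 to 0.67 with an adjusted p of 0.0556, past the threshold, and it was the only setting tried to do so.

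Chek1 was 5.26, 5.79 and 7.18 CPM in WT Treg cells of the mLN and 13.4, 17.4 and 15.9 CPM in DKO Treg cells. No libraries overlapped, and the log2 fold change was 1.36 (SE 0.22, adjusted p = 0.00122). Chek2 was 3.37, 3.47 and 4.53 CPM in WT against 7.18, 8.19 and 8.14 CPM in DKO Treg cells. The log2 fold change of Chek2 was 1.05 (SE 0.19, adjusted p = 0.00255), again with no overlap. Every DKO library lay above every WT library for these 4 genes and for no other member, and for 21.3% of all genes tested. Brca1, Chek1 and Chek2 were called under all 15 alternative settings and Brca2 under 14.

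The kinases that act at the break itself did not pass the test in mLN Treg cells. Atm was 123, 110 and 103 CPM in WT against 131, 100 and 119 CPM in DKO libraries, which overlapped (log2 fold change 0.06, 95% interval -0.16 to 0.28, adjusted p = 0.758). Atr was 59.4, 62.8 and 55.6 CPM in WT against 59.7, 49.4 and 55.0 CPM in DKO libraries (-0.12, interval -0.29 to 0.06, adjusted p = 0.407). These intervals hold no change of 1.5-fold in either direction. Rad50 was 31.4, 38.6 and 31.1 CPM in WT against 38.0, 35.9 and 47.0 CPM in DKO libraries (0.26, interval 0.02 to 0.49, adjusted p = 0.158). Its partners in the MRN complex, named here after their values were seen, were not called either: Mre11a had a log2 fold change of 0.08 (adjusted p = 0.55) and Nbn of 0.38 (adjusted p = 0.0886).

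Neither the histone gene nor the p53 gene passed in this comparison. H2afx was 39.7, 46.9 and 41.9 CPM in WT against 43.5, 61.7 and 46.8 CPM in DKO Treg cells of the mLN. The groups overlapped, and 1 DKO library was above all WT libraries (log2 fold change 0.24, SE 0.14, adjusted p = 0.243). Trp53 was 181, 176 and 165 CPM in WT against 166, 158 and 152 CPM in DKO libraries, which overlapped by the lowest WT library only. Its log2 fold change was -0.13 (SE 0.07, adjusted p = 0.24). On the TPM scale Trp53 was 0.04 (log2) higher in DKO, and 0.12 lower once the median difference over genes was taken off. No member lay below WT in every DKO library here, against 19.2% of all genes.

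In the Foxp3- cells of the mLN, no member was called in DKO against WT by edgeR, while 3.12% of all genes were called higher and 0.304% lower. At an unadjusted p under 0.05 there were 4 members, Chek1, Chek2, Atr and Trp53, against 18.7% of all genes, and DESeq2 with 4 groups called 2, Chek1 and Chek2. With the filterByExpr filter on low counts edgeR called Chek2 (adjusted p = 0.0381). Chek1 was 2.72, 2.43 and 3.39 CPM in WT against 4.26, 4.22 and 6.72 CPM in DKO (log2 fold change 0.83, SE 0.24, adjusted p = 0.0701). Chek2 was 2.47, 2.30 and 2.39 CPM in WT against 3.90, 4.29 and 3.80 CPM in DKO (0.75, SE 0.20, adjusted p = 0.0584). For both kinases every DKO library lay above every WT library, as it did for 11.1% of all genes. Without DKO Foxp3- replicate 1 both kinases were called, and without replicate 2 Chek1 was called. Of 6 Treg markers 2, Ctla4 and Ikzf2, were called higher in these DKO Foxp3- cells, and the 6 summed to 184 to 351 CPM against 140 to 145 CPM in WT. NK cell markers summed to 53.8 to 141 against 31.9 to 41.8 CPM, with Klrb1c called higher, and B cell markers to 8.96 to 22.9 against 5.29 to 6.68 CPM, with all 7 positive and none called. CD8 T cell markers summed to at most 10.1 CPM against 21.5 to 23.3 CPM, with Cd8b1 called lower. The part of these shifts in the values of the members was not tested.

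Trp53 had the only adjusted p under 0.05 in this comparison and missed the call by its size. It was 216, 193 and 189 CPM in WT against 161, 160 and 161 CPM in DKO Foxp3- cells, with the 3 DKO libraries nearly equal and below all 3 WT libraries. The log2 fold change was -0.31 (SE 0.07, adjusted p = 0.0372), a level in DKO of 0.805 of that in WT. Atr was 47.7, 53.4 and 51.9 CPM in WT against 45.1, 41.2 and 45.3 CPM in DKO (-0.22, SE 0.09, adjusted p = 0.212). Atr and Trp53 were the 2 members whose DKO libraries all lay below WT, as did those of 9.74% of all genes. Brca1 (0.26, SE 0.18, adjusted p = 0.487) and Brca2 (0.21, SE 0.18, adjusted p = 0.591) overlapped between genotypes, with Brca1 at 5.53, 6.41 and 4.99 CPM in WT against 6.30, 5.56 and 8.57 CPM in DKO. Rad50, Atm and H2afx had log2 fold changes between -0.10 and 0.11 and overlapped too.

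**Figure D2:**
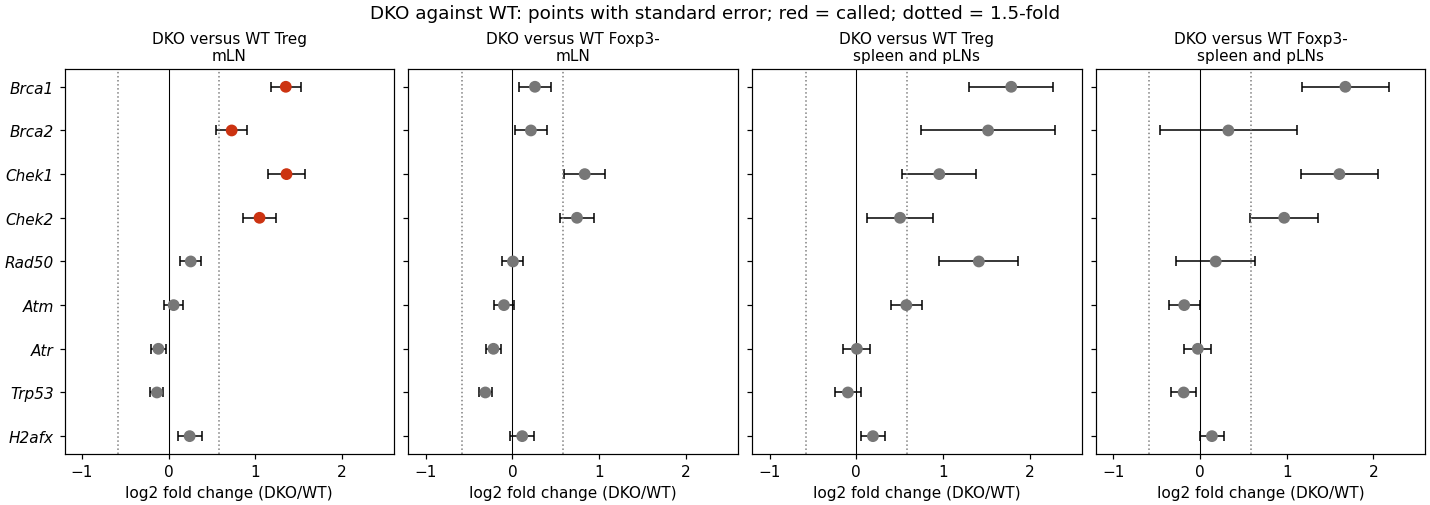
Log2 fold changes of the 9 genes in DKO against WT (horizontal axes) with their standard errors, for Treg and Foxp3- cells of each tissue. Red points were called, which held for Brca1, Brca2, Chek1 and Chek2 in mLN Treg cells alone, and dotted lines mark a 1.5-fold change.

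Whether the genotype effect differed between the 2 cell types was tested as an interaction within mLN. The largest difference among the members was that of Brca1, whose DKO effect was 1.09 (log2, SE 0.25) greater in Treg than in Foxp3- cells. Its adjusted p of 0.0908 (unadjusted 0.000791) did not pass, and 0.28% of all genes passed by adjusted p. Brca1 was the 1 member at an unadjusted p under 0.05, against 10.9% of all genes, and the 1 that DESeq2 with 4 groups called. It passed without DKO Foxp3- replicate 2 and without DKO Foxp3- replicate 3. For Brca2 the difference was 0.51 (SE 0.26, adjusted p = 0.499), for Chek1 0.53 (SE 0.32, adjusted p = 0.61) and for Chek2 0.30 (SE 0.28, adjusted p = 0.779). All 9 members had a positive difference, against 48.8% of all genes, with a median of 0.25 against -0.01. A call in Treg cells and none in Foxp3- cells is therefore not shown to be a difference between them for any of the 4 genes by edgeR.

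WT Treg cells of the mLN were compared with WT Foxp3- cells, 2 groups that also enter the comparisons above. Chek1 was 2.14-fold higher in Treg cells (log2 1.10, SE 0.23, adjusted p = 0.00687), with every Treg library above every Foxp3- library. Chek2 was 1.58-fold higher (0.66, SE 0.20, adjusted p = 0.0419), likewise without overlap. Same-numbered libraries of the 2 cell types deviated together, and with the replicate number as a block Chek1 remained called while Chek2 did not (0.65, adjusted p = 0.0563). Leaving out any 1 of the 6 WT libraries also removed the call of Chek2. Brca1 had an adjusted p of 0.0464 and a fold of 1.498, just under the minimum of 1.5. The call rule took 6.91% of all genes as higher in Treg cells and 3.14% as lower, and no member was lower. At an unadjusted p under 0.05 there were 6 members, against 27% of all genes.

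The DKO effect in Treg cells of spleen and pLNs, with 2 libraries per group, gave no called member by edgeR fitted over the 4 groups. The rule called 1.14% of all genes higher and 0.605% lower there. At an unadjusted p under 0.05 there were 4 members, Brca1, Rad50, Atm and Chek1, against 20.4% of all genes. DESeq2 fitted over the 4 groups called none, DESeq2 fitted on the 2 Treg groups called Brca1, and edgeR fitted on the 2 Treg groups called Brca1 and Chek1. The study named Brca1, Atm and Rad50 among the genes it found differentially expressed in these Treg cells with DESeq2. It called more genes there than edgeR fitted over the 4 groups did here. For 6 members (Brca1, Rad50, Atm, Chek1, Chek2 and H2afx) both DKO libraries were above both WT libraries, as for 28.1% of all genes. Trp53 alone was below in both, as 26.1% of all genes were. The median log2 fold change of the members was 0.58, against 0.02 over all genes.

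**Figure D3:**
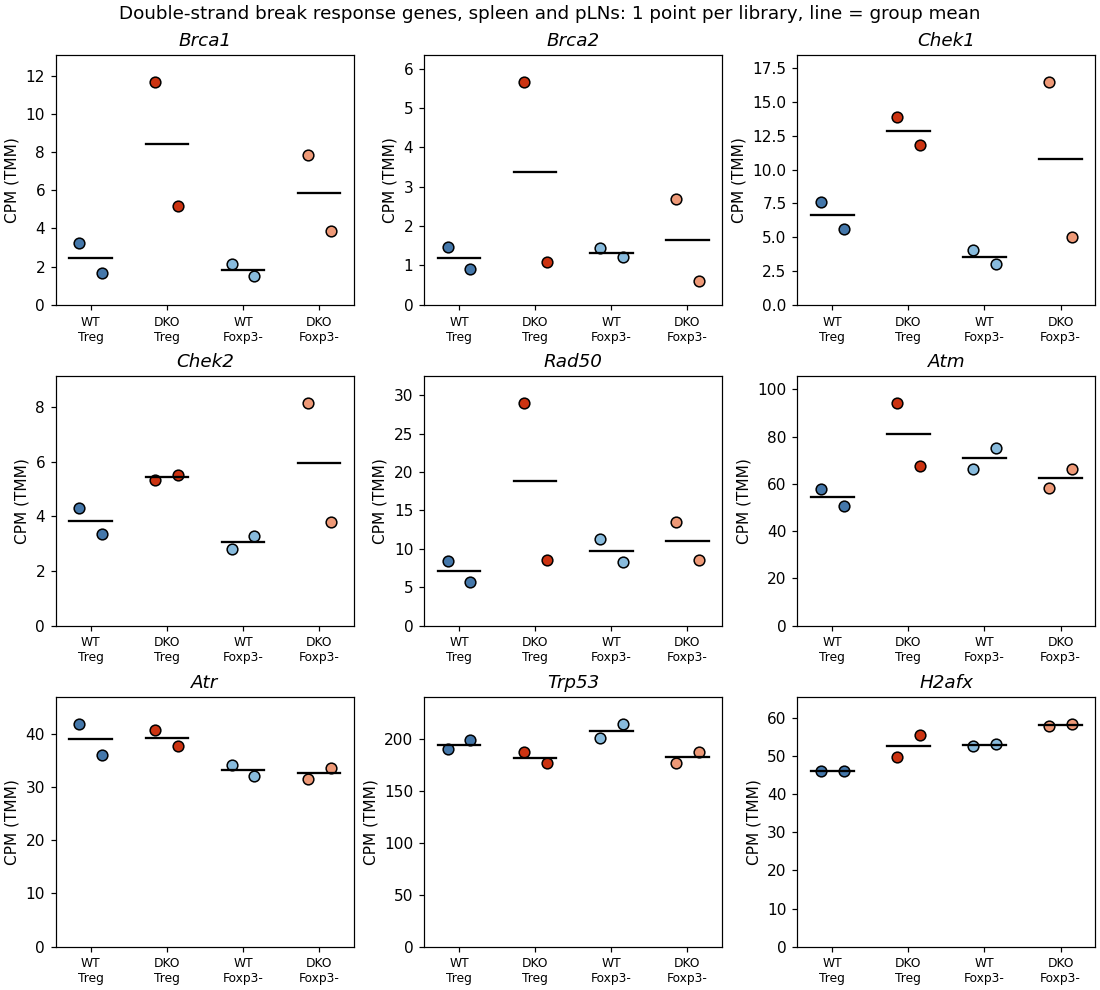
Levels of the 9 genes in spleen and pLNs in CPM (vertical axes, each from 0), with 1 point per library and a line at the mean of each group of 2. In DKO Treg cells replicate 1 (the left point) was well above replicate 2 for Brca1, Brca2, Rad50 and Atm, and in DKO Foxp3- cells replicate 1 was above replicate 2 for Brca1, Brca2, Chek1 and Chek2.

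Brca1 was 3.23 and 1.67 CPM in WT Treg cells of spleen and pLNs and 11.7 and 5.19 CPM in DKO Treg cells. The direction was that seen in mLN and the groups did not overlap, but the 2 DKO libraries lay far apart (log2 fold change 1.79, SE 0.49, adjusted p = 0.0816). Without DKO Treg replicate 1 the value for Brca1 was 1.08, and over the 4 fits that leave out 1 Treg library it ranged up to 2.33. Chek1 was 7.61 and 5.64 CPM in WT against 13.9 and 11.8 CPM in DKO (0.96, SE 0.43, adjusted p = 0.234). Chek2 was 4.30 and 3.34 CPM in WT against 5.32 and 5.53 CPM in DKO (0.51, SE 0.38, adjusted p = 0.506). Brca2 was 1.46 and 0.905 CPM in WT against 5.67 and 1.09 CPM in DKO, so that 1 DKO library lay among the WT libraries (1.52, SE 0.77, adjusted p = 0.295). Without DKO Treg replicate 1 the value for Brca2 was -0.11.

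Rad50 and Atm had larger log2 fold changes in DKO against WT Treg cells here than in mLN. Within this tissue the CPM of both was highest in the library that stood apart by gene length. Rad50 was 8.45 and 5.71 CPM in WT against 29.0 and 8.60 CPM in DKO Treg cells (1.41, SE 0.45, adjusted p = 0.116). It was 0.28 without DKO Treg replicate 1. Atm was 57.8 and 50.8 CPM in WT against 94.3 and 67.7 CPM in DKO (0.58, SE 0.18, adjusted p = 0.102). With a correction for gene length the value for Atm was 0.04, and without DKO Treg replicate 1 it was 0.32. By the length used in the TPM values, Atm was longer than 99.3% of genes, Brca2 than 98.4%, Atr than 96.3%, Brca1 than 92.1% and Rad50 than 84.4%. Atr, though long, was 41.9 and 36.1 CPM in WT against 40.7 and 37.6 CPM in DKO, and with the length correction its value went from 0.01 to -0.35. With that correction Rad50 was 1.152 (adjusted p = 0.108), Brca1 1.44 (adjusted p = 0.0762) and Brca2 0.89 (adjusted p = 0.488). Without DKO Treg replicate 2, Brca1, Rad50 and Atm were called. That fit leaves replicate 1, the library that stood apart, as the whole DKO group and takes its spread from the other groups, so these calls have no replicate check in DKO Treg cells.

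**Figure D4:**
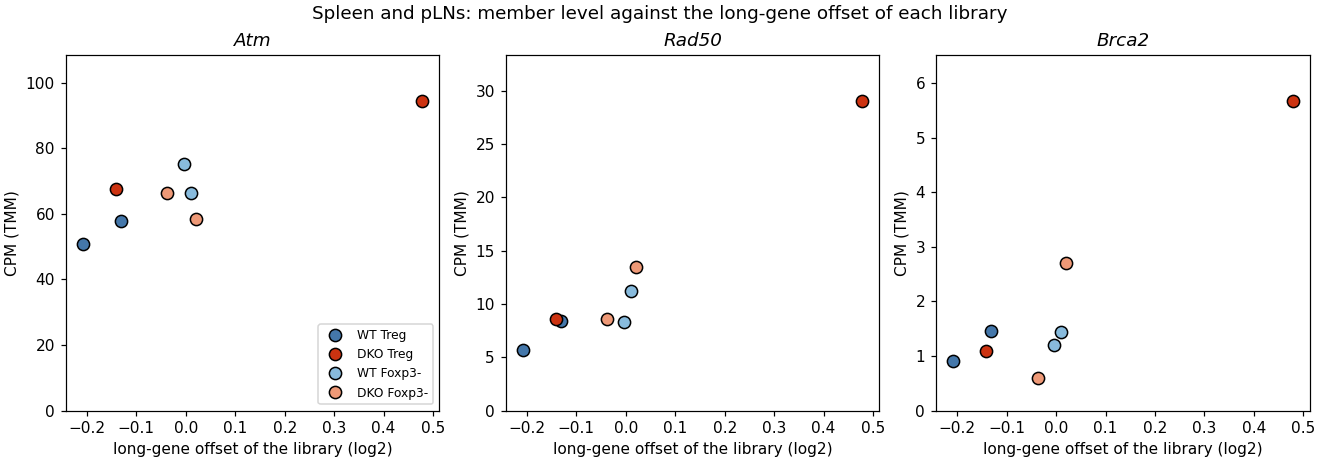
Levels of Atm, Rad50 and Brca2 in CPM (vertical axes) against the long-gene offset of each of the 8 libraries of spleen and pLNs (horizontal axes, log2: longest minus shortest 25% of genes, each relative to the mean of all libraries). DKO Treg replicate 1, at 0.48, has the highest level of all 3 genes, and the other 7 libraries lie between -0.21 and 0.02.

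Trp53 was 190 and 199 CPM in WT against 187 and 177 CPM in DKO Treg cells of spleen and pLNs (-0.10, interval -0.38 to 0.19, adjusted p = 0.743). H2afx was 46.0 and 46.1 CPM in WT against 49.8 and 55.6 CPM in DKO (0.19, interval -0.08 to 0.47, adjusted p = 0.482). The value for Atr was 0.01, with an interval from -0.30 to 0.31. The intervals of these 3 genes in this fit hold no change of 1.5-fold in either direction. For Atr this depends on the fit, since the length correction moved its value down, as given above, and no interval was computed there. On the TPM scale Trp53 was 0.24 (log2) higher in DKO before the median difference over genes was taken off and 0.08 lower after it.

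In Foxp3- cells of spleen and pLNs no member was called by edgeR or by DESeq2, and 0.77% of all genes were called higher and 0.0489% lower. At an unadjusted p under 0.05 there were 3 members, Brca1, Chek1 and Chek2, against 12.9% of all genes. Brca1 was 2.13 and 1.53 CPM in WT against 7.85 and 3.85 CPM in DKO (1.68, SE 0.50, adjusted p = 0.151). Chek1 was 4.03 and 3.05 CPM in WT against 16.5 and 5.04 CPM in DKO (1.61, SE 0.45, adjusted p = 0.123). Chek2 was 2.81 and 3.30 CPM in WT against 8.16 and 3.78 CPM in DKO (0.97, SE 0.39, adjusted p = 0.307). These 3 and H2afx had both DKO libraries above both WT libraries, as had 20.8% of all genes, and Atm and Trp53 had both below, as had 21.1%. Without DKO Foxp3- replicate 2 the first 3 were called, at 2.09, 2.22 and 1.42, and without replicate 1 their values were 1.07, 0.50 and 0.30 with no call. Each of these fits leaves 1 DKO Foxp3- library, which is assumed to vary like the other groups. DKO Foxp3- replicate 1 also stood apart in marker genes. Its 6 Treg markers summed to 708 CPM, against 202 to 229 CPM in the other 3 Foxp3- libraries and 1613 to 1763 CPM in the Treg libraries, while Foxp3 itself was at or below 2.75 CPM in all of the Foxp3- libraries. Its plasma cell markers summed to 328 CPM, against 97.4 to 135 CPM in the other 3, and its NK cell markers to 219 CPM against 76.0 to 126 CPM. The part of these markers in the values of Brca1, Chek1 and Chek2 was not tested.

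Brca2 in these Foxp3- cells was 1.44 and 1.21 CPM in WT against 2.70 and 0.593 CPM in DKO, 1 library above and 1 below both WT libraries (0.33, SE 0.79, adjusted p = 0.942). Rad50 (0.18), Atr (-0.03), H2afx (0.14), Atm (-0.18) and Trp53 (-0.19) had log2 fold changes between -0.19 and 0.18. In the interaction over spleen and pLNs no member passed, 0.00611% of all genes did, and Atm was the 1 member at an unadjusted p under 0.05, against 5.53% of all genes. Treg and Foxp3- cells of WT spleen and pLNs differed in no member by edgeR, which called 2.48% of all genes higher and 1.52% lower in Treg cells. No member had an unadjusted p under 0.05 there, against 13.7% of all genes, and DESeq2 with 4 groups called none, whereas edgeR fitted on the 2 WT groups called Chek1. Chek1 had the largest value of the 9, at 0.90 (SE 0.45, adjusted p = 0.431).

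Across the 12 libraries of the mLN, the mean CPM of Brca1, Brca2 and Chek1 fell in the order DKO Treg, WT Treg, DKO Foxp3- and WT Foxp3-. For each of them the WT Treg and DKO Foxp3- libraries overlapped. The DKO and WT Foxp3- libraries overlapped as well for Brca1 and Brca2. Chek2 was also highest in DKO Treg and lowest in WT Foxp3- cells, but the mean of DKO Foxp3- cells (3.80 to 4.29 CPM) was above that of WT Treg cells (3.37 to 4.53 CPM), with libraries that overlapped. Pearson's r of log2 CPM was 0.95 between Brca1 and Brca2, 0.95 between Brca1 and Chek1, 0.96 between Chek1 and Chek2 and 0.86 between Brca2 and Chek2. Trp53 ran the other way, with r of -0.73 against Chek1 and -0.80 against Chek2. Over the 8 libraries of spleen and pLNs the corresponding values were 0.70, 0.89, 0.92 and 0.53, and -0.88 and -0.83 for Trp53. The libraries of a tissue fall into 4 groups, so these values describe group differences as well as library differences, and no test was made of them.

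A list of 22 proliferation genes, Mki67 and Ccna2 among them, moved with these members. In mLN, 20 of the 22 were called higher in DKO Treg cells (median log2 fold change 1.39) and 12 of 22 in DKO Foxp3- cells (median 0.76), against 8.5% and 3.12% of all genes. Their summed level was 1284 to 1415 CPM in WT Treg, 2260 to 2829 CPM in DKO Treg, 1016 to 1044 CPM in WT Foxp3- and 1197 to 1357 CPM in DKO Foxp3- libraries. In spleen and pLNs 1 of 22 was called higher in Treg cells and 0 of 22 in Foxp3- cells by edgeR (1.14% and 0.77% of all genes), and the sums were 1228 to 1271 against 1662 to 1832 CPM in Treg and 1084 to 1102 against 1222 to 2090 CPM in Foxp3- libraries.

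Pearson's r with the log2 of that sum, over 12 mLN libraries, was 0.97 for Brca1, 0.97 for Chek1, 0.97 for Chek2 and 0.90 for Brca2. It was 0.71 for Rad50, 0.64 for H2afx, 0.22 for Atr, -0.40 for Atm and -0.68 for Trp53. Taken as deviations from the group means, r was 0.59 for Chek1, 0.53 for Chek2 and 0.34 for Brca1, but -0.57 for Brca2 in mLN. For the others it was 0.57 for H2afx, 0.07 for Rad50, -0.36 for Trp53, -0.63 for Atm and -0.65 for Atr. Over the 8 libraries of spleen and pLNs r was 0.96 for Chek1, 0.96 for Chek2, 0.89 for Brca1, 0.66 for Brca2 and -0.81 for Trp53. It was 0.60 for Rad50, 0.28 for H2afx, 0.12 for Atr and 0.20 for Atm, the last with the opposite sign to mLN. Over deviations from the group means there it was 0.95 for Chek1, 0.93 for Chek2, 0.67 for Brca1 and 0.77 for Brca2. For the others it was 0.48 for Rad50, -0.14 for Atm, -0.21 for Atr, -0.43 for Trp53 and -0.27 for H2afx. Brca2 and H2afx had the opposite sign to mLN. With 2 libraries per group these deviations are mirror pairs, so they hold only the difference between the replicates of each group. The proliferation sum differed most between replicates in DKO Foxp3- cells (2090 and 1222 CPM). The part of the share of dividing cells in the higher levels of these 4 genes was not tested.

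**Figure D5:**
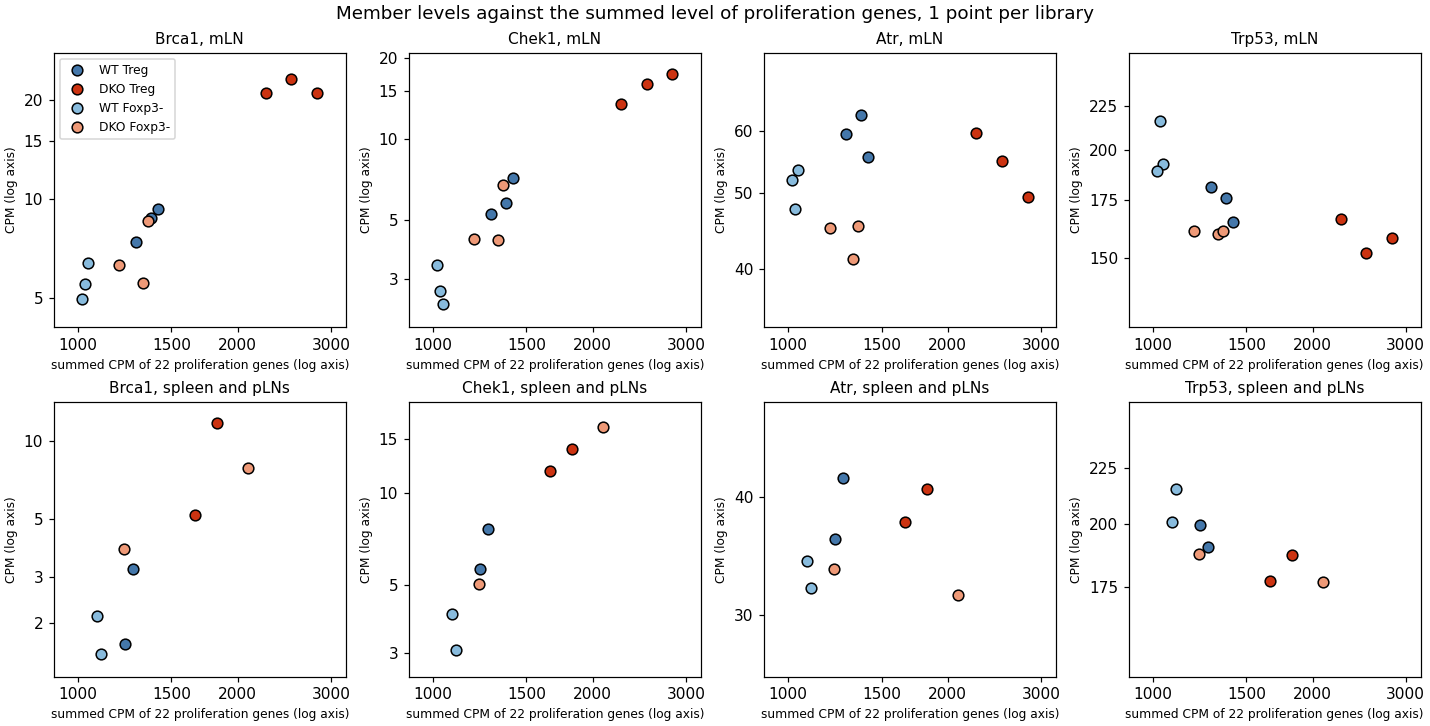
Levels of Brca1, Chek1, Atr and Trp53 in CPM against the summed CPM of 22 proliferation genes (both axes logarithmic), with 1 point per library, mLN above and spleen with pLNs below. Brca1 and Chek1 increase along the sum in both tissues, Atr shows no such order (r 0.22 in mLN) and Trp53 decreases (r -0.68 in mLN).

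For each member the 3 genes with the most similar pattern were taken by the mean of r over the 2 tables, among 8524 other genes (8525 for Brca1, Brca2 and Chek2) with at least 5 CPM in both. For Brca1 these were Pole, Uhrf1 and Ncapg2 (r 0.96 to 0.98 in either table), for Chek1 they were 2810417H13Rik, Ccna2 and Hells (0.98 to 0.99), and for Chek2 they were Gins2, Ccna2 and Trip13 (0.95 to 0.97). Brca2 was nearest to Mprip, Slc43a1 and Nav2 (0.82 to 0.95). Rad50 was nearest to Ccar1, Baz1a and Smpd4 (0.88 to 0.96). Atm was nearest to Birc6, Macf1 and 4932438A13Rik (0.82 to 0.97), and Atr to Slc43a2, Abcb1a and Itgae (0.83 to 0.96). Trp53 was nearest to Las1l, Dclre1c and Ets2 (0.84 to 0.94), and H2afx to Snx5, Ybx1 and Psmc1 (0.77 to 0.97). Over deviations from the group means r of these pairs ran from 0.20 to 0.90 in mLN and from -0.78 (H2afx with Psmc1) to 0.99 in spleen and pLNs. The 3 genes nearest to Brca2 had r of 0.98 to 0.99 over deviations from the group means in spleen and pLNs, where 1 DKO Treg library stood apart. With 2 libraries per group, the deviations of that tissue hold only the difference between the replicates of each group.

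The rest of the pathway in mLN Treg cells was described by 8 lists of other genes. Of 9 genes of the MRN complex and end resection, 3 rose in DKO and 0 fell: Rbbp8 (log2 fold change 1.21), the exonuclease gene Exo1 (1.55) and the nuclease-helicase gene Dna2 (1.45). Of 15 homologous recombination genes 3 rose and 0 fell, namely Rad54l (1.60, SE 0.21, adjusted p = 0.000427), Brip1 (1.28) and Bard1, the binding partner of Brca1 (0.68, adjusted p = 0.0344). Of 11 Fanconi anaemia genes 3 rose, namely Fanca (1.67), Ube2t (0.97) and Fancd2 (0.74). Of 13 genes of Atr signalling and the G2/M checkpoint 5 rose, led by Clspn, the adaptor through which Atr activates Chek1 (1.52), Cdc25c (1.62) and Tipin (0.63). None of 12 genes of chromatin signalling at breaks was called, and of 10 non-homologous end joining genes 0 rose and 1, Xrcc4, fell by 0.59 on the log2 scale. These counts stand against 8.5% of all genes called higher and 3.43% called lower, by which a list of this size would hold about 1 called gene or none, so the 0 of the chromatin signalling and end joining lists is near the background share. Median log2 fold changes were 0.38 for resection, 0.45 for recombination, 0.32 for Fanconi anaemia, 0.39 for Atr signalling, -0.02 for chromatin signalling and -0.10 for end joining, against 0.0045 over all genes.

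Some p53 target genes rose in DKO Treg cells of the mLN, where Trp53 itself, at -0.13, did not pass. Of 22 p53 targets 6 rose in DKO Treg cells and 0 fell, led by Perp (3.49, SE 0.58), the pro-apoptotic gene Pmaip1 (2.01, SE 0.36) and Bax (0.61, SE 0.13). The median of the 22 was 0.35, and 14 of them had a positive value. The cell cycle inhibitor Cdkn1a was also called (1.29, adjusted p = 0.00846). Perp rested on few reads in WT Treg cells, and many of these genes have regulators other than p53. Of 8 p53 regulators 1 rose, the kinase gene Hipk2 (1.01, SE 0.20), which is near the share of 8.5% of all genes called higher. For the targets, 6 of 22 stands against the same 8.5%, and the difference was not tested.

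In Foxp3- cells of the mLN, where 3.12% of all genes were called higher and 0.304% lower, some genes of these lists were called too. Of the 15 recombination genes 1 rose, Rad54l (1.07), and of the 13 Atr signalling genes 2 rose, Cdc25b (1.74) and Clspn (1.02). Of the 10 end joining genes 1, the ligase gene Lig4, fell by 0.70 on the log2 scale (adjusted p = 0.0217). Of the 22 p53 targets 3 rose, Pmaip1 (2.32), Perp (3.27) and Cdkn1a (1.69). None of the genes of the resection, chromatin signalling, Fanconi anaemia and p53 regulator lists was called by edgeR. Whether these counts differ between the 2 cell types was not tested.

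In spleen and pLNs, where 1.14% of all genes were called higher in DKO Treg cells and 0.77% in DKO Foxp3- cells, Rad54l (1.94, SE 0.41, adjusted p = 0.0417) was the 1 recombination gene called in DKO Treg cells, Hipk2 (2.06) the 1 p53 regulator, and Sesn2 (1.72), Zmat3 (0.85) and Cdkn1a (1.62) the 3 p53 targets. The p53 regulators summed to 496 CPM in DKO Treg replicate 1, whose long genes were high, and 342 CPM in replicate 2, against 336 to 344 CPM in WT. Values of these list genes without replicate 1 are not given. In Foxp3- cells Phlda3 (4.08-fold) and Pmaip1 (4.01-fold), both p53 targets, were called and no gene of the 7 other lists by edgeR. In the WT mLN, where 6.91% of all genes were called higher and 3.14% lower, Treg cells had higher levels than Foxp3- cells of the recombination gene Rad54l (1.05), the resection genes Exo1 (1.17) and Dna2 (1.03), Fancd2 (1.14), and Clspn (1.23) and Cdc25c (1.43). Usp28 of the chromatin signalling list (-0.94) and Dntt of the end joining list (-3.40) were lower in Treg cells. Of the 22 p53 targets 4 were higher in WT Treg cells of the mLN, led by Trp53inp1 (0.61), Cdkn1a (2.28) and Pmaip1 (1.97), and 2 in WT spleen and pLNs (2.48% of all genes higher, 1.52% lower), Pmaip1 (1.70) and Trp53inp1 (0.75). Dntt (-2.87) was the 1 other gene of the 8 lists called there.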

How the data were processed

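Sequencing was single-end on a HiSeq instrument from stranded poly(A) libraries. The authors aligned reads to mm9 with TopHat2 2.1.1 and counted them over RefSeq genes with featureCounts (Subread 1.4.3-p1). The deposited counts are raw reads per gene, and the deposited TPM values sum to 1000000 per library by a computation not given in the sources used here.

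Counts of each tissue were fitted in R 4.3.3 with edgeR 4.0.16 (TMM, quasi-likelihood test, all 4 groups in 1 fit, genes with at least 1 read), with DESeq2 1.42.0 as an alternative. Intervals are normal ones from the SE, somewhat narrower than the quasi-likelihood test implies. Scripts were tested on simulated data. The study describes the replicates as biological. Same-numbered Treg and Foxp3- libraries of the mLN deviated together (r 0.17 to 0.18 in WT, 0.11 to 0.39 in DKO), so a replicate block is given for comparisons of cell types there, and DKO and WT numbers did not pair (r -0.02 to 0.11).

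The 9 members and all lists were chosen with earlier results of these data known. Other pathway genes named are those called with the smallest p, at most 3 per list and comparison, besides Cdkn1a, Mre11a and Nbn. One gene of the recombination list is not reported here and was left out of that list's counts and medians. Of the members, 7 were in the promoter table.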

Additional observations from a re-analysis of the deposited data

Results flagged for a closer look

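Atm in spleen and pLNs had values of opposite sign in the 2 cell types, neither of which passed the test. The log2 fold change in DKO was 0.58 in Treg cells (adjusted p = 0.102) and -0.18 in Foxp3- cells (interval -0.53 to 0.17, adjusted p = 0.77), by edgeR. Both DKO Treg libraries were above both WT Treg libraries and both DKO Foxp3- libraries were below both WT Foxp3- libraries. The DKO effect in Treg cells minus that in Foxp3- cells was 0.76 on the log2 scale (SE 0.25, unadjusted p = 0.0107, adjusted p = 0.902 by edgeR), so the difference did not pass. The DKO libraries of both cell types came from the same 2 mice by the study's description, and this fit treats them as independent. In mLN the same difference was 0.16 (SE 0.16, adjusted p = 0.814). The library of DKO Treg replicate 1, whose long genes were high, had the highest Atm level of the tissue. With a correction for gene length the difference was 0.24, and without that library it was 0.50, both in the same direction.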

How the results depend on the processing

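The calls of Brca1, Chek1 and Chek2 in mLN DKO Treg cells held under all 15 alternatives, with log2 fold changes of 1.26 to 1.42, 1.27 to 1.495 and 0.96 to 1.19. Brca2 held under 14 (0.66 to 0.80). With n of 2 or 3 and 8 to 99 reads on Brca2 in spleen and pLNs, changes of such genes are measured with wide error. With a replicate block, 1 member was called in spleen and pLNs Treg cells (Brca1, 1.75), 1 in mLN Foxp3- cells (Chek1, 0.82) and 1 in place of 2 for WT Treg against Foxp3- cells of the mLN (Chek1), and the block changed no other count. The numbers of spleen and pLNs (2 pairs, r 0.19 to 0.34) are not stated to mark the same animal. By the study's description, Treg and Foxp3- cells of DKO mice in that tissue came from the same 2 littermates. The main fit treats these libraries as independent.

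The count of members called in DKO against WT Treg cells of spleen and pLNs went from 0 to 1 with a gene length correction and replicate block, 2 with edgeR on the 2 groups compared, 1 with DESeq2 on those groups (added after seeing the data), and 0 to 3 when 1 library was left out. In Foxp3- cells of that tissue it was 0 to 3 when 1 library was left out, and between WT cell types it was 1 with edgeR on the 2 groups. Leaving out a library of spleen and pLNs leaves 1 in its group, with the spread taken from the other groups. In mLN Foxp3- cells the count was 1 with filterByExpr, 2 with DESeq2 on 4 groups, 1 with a length correction and block, 1 with no fold minimum (Trp53) and 0 to 2 when 1 library was left out. Between WT cell types of the mLN it was 1 with the length correction, 1 with that and the block, 1 without any 1 library, and 3 with no fold minimum, which added Brca1. The mLN interaction gave 1 with DESeq2 on 4 groups and 0 to 1 when 1 library was left out.

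Values that changed sign were never called. With the length correction, alone and with the block, Atr in spleen and pLNs Treg cells was -0.35 and -0.36 and its interaction -0.28 and -0.29, the Brca1 interaction there was -0.18 and -0.13, Rad50 in mLN was -0.0869 and -0.0886 in Foxp3- cells and -0.0494 and -0.0525 between WT cell types, H2afx was -0.0337 and -0.0321 between them, and Atm in mLN Treg cells was -2e-06 with the correction alone. When 1 library was left out, spleen and pLNs Treg values ranged from -0.10 to 0.12 for Atr and from -0.11 to 2.25 for Brca2. Foxp3- values ranged from -0.0721 to 0.0206 for Atr, -0.19 to 0.47 for Rad50 and -1.15 to 1.02 for Brca2. WT cell type differences ranged from -0.13 to 0.82 for Brca1 and -0.55 to 0.14 for Brca2. Interactions ranged from -0.60 to 0.73 for Brca1, -0.44 to 2.68 for Brca2, -0.071 to 0.15 for Atr, -1.26 to 0.46 for Chek1, -0.91 to 0.20 for Chek2 and -0.0311 to 0.13 for H2afx. In mLN the ranges were -0.0295 to 0.16 for Atm in Treg cells, -0.0638 to 0.0556 for Rad50 in Foxp3- cells, -0.0354 to 0.13 for Rad50 and -0.0293 to 0.12 for H2afx between WT cell types, and -0.0369 to 0.23 for the H2afx interaction. Causes of these changes were not tested.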
